A study of Mus musculus with 15 samples.

Results

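The STAT genes of these mouse macrophages described here are Stat2, Stat3, Stat4, Stat5a, Stat5b and Stat6. They were taken as the rows of the deposited count matrix whose Ensembl identifiers map to these 6 symbols, of 53465 rows in all. All 6 were among the 13938 genes with enough counts to be tested. The cells were bone marrow-derived macrophages (BMDMs), which are marrow cells kept for 7 days in DMEM with 10% serum and M-CSF (20 ng/ml), the growth factor that drives macrophage differentiation. There were 5 groups of 3 biological replicates, which gave 15 libraries: untreated BMDMs (control), and BMDMs given IL-4, IL-4 with IL-6, IL-13, or IL-13 with IL-6 for 24 h. IL-4 was used at 10 ng/ml, while IL-13 and, where added, IL-6 were used at 40 ng/ml. All groups shared the M-CSF culture, and no group with IL-6 alone is among the libraries. The labels give no strain, genotype, age or pooling of animals for these cultures. The methods of the study describe the marrow of young adult mice as the source of its BMDMs.

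STAT proteins wait in the cytoplasm until a cytokine receptor is engaged. Janus kinases (JAKs) bound to the receptor chains then phosphorylate them on a tyrosine, and the STATs pair up, enter the nucleus and bind DNA. STAT6 is the main transducer of IL-4 and IL-13 and STAT3 that of IL-6 and IL-10, while STAT5A and STAT5B serve the growth factors GM-CSF and IL-3. STAT2 acts with IRF9 in the response to type I interferon, and STAT4 serves IL-12, chiefly in T and NK cells. The values here are levels of mRNA, so they say nothing of phosphorylation.

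Stat6 (ENSMUSG00000002147) lies on the plus strand at chr10:127642986-127660957 of GRCm38, and Stat2 (ENSMUSG00000040033) on the same strand at chr10:128270559-128292849. Stat4 (ENSMUSG00000062939) lies on the plus strand at chr1:51987148-52107189. The other 3 form a cluster on chromosome 11: Stat5b (ENSMUSG00000020919, minus strand, chr11:100780731-100850724), Stat5a (ENSMUSG00000004043, plus strand, chr11:100859351-100885169) and Stat3 (ENSMUSG00000004040, minus strand, chr11:100885098-100939540). In the annotation the ends of Stat3 and Stat5a overlap by 72 bases on opposite strands, and the end of Stat6 overlaps Nab2, a corepressor of EGR factors, by 40 bases. Of the 50-base stretches of the longest principal Stat5a transcript, 15.84% also occur in that of Stat5b, and 11.77% of those of Stat5b occur in Stat5a. No other pair of these 6 genes shared such a stretch. Whether the counting used strand, and how it treated reads that match both Stat5a and Stat5b, is not given in the sources used here.

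Summed counts were between 17001352 and 18918686 per library. Markers of macrophages were present in every library: 7 of 7 were detected, and Csf1r, the M-CSF receptor, was between 1421 and 2286 normalized CPM (counts scaled to a common library size with TMM factors). The control libraries also held markers of other marrow cells that the treated libraries held at far lower levels. The sum of 7 granulocyte markers was between 382 and 456 CPM in control against at most 2.04 in any treated group, and that of 4 megakaryocyte markers between 283 and 315 against at most 6.59. The sum of 6 dendritic cell markers was 23.4 to 26.8 CPM against at most 1.18, that of 6 B cell markers 11.3 to 12.5 against at most 1.69, that of 6 stromal markers 16.6 to 21.4 against at most 0.375, and that of 5 mast cell and basophil markers 8.87 to 9.48 against at most 0.236. That of 4 erythroid markers was 0.617 to 1.16 against at most 0.289. The macrophage markers themselves summed to 18649 to 20818 CPM in control, 16822 to 19501 with IL-13, 14206 to 14682 with IL-4, 13705 to 14597 with IL-13/IL-6 and 10857 to 12652 with IL-4/IL-6. These sums are mostly Lyz2 (14924 CPM in control and 6852 with IL-4/IL-6), and 4 of the 7 means were lower with IL-4/IL-6 than in control. The others of these were Csf1r (2195 and 1582), Itgam (193 and 169) and Mertk (143 and 12.7, and at most 17.9 in any treated group). Adgre1, which codes for F4/80 (844 and 1288), Cd68 (1317 and 1509) and Fcgr1 (155 and 217) were higher. The part of these cells in the comparisons with control was not tested. In bulk RNA, fewer cells of a type and less RNA per cell cannot be told apart. Among replicates, IL-4/IL-6 replicate 2 and IL-13 replicate 1 stood apart from the others of their groups, and the spread between replicates (biological coefficient of variation) was 4.48% in control, 4.54% in IL-4, 14.8% in IL-4/IL-6, 10.9% in IL-13 and 7.39% in IL-13/IL-6.

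**Figure D1:**
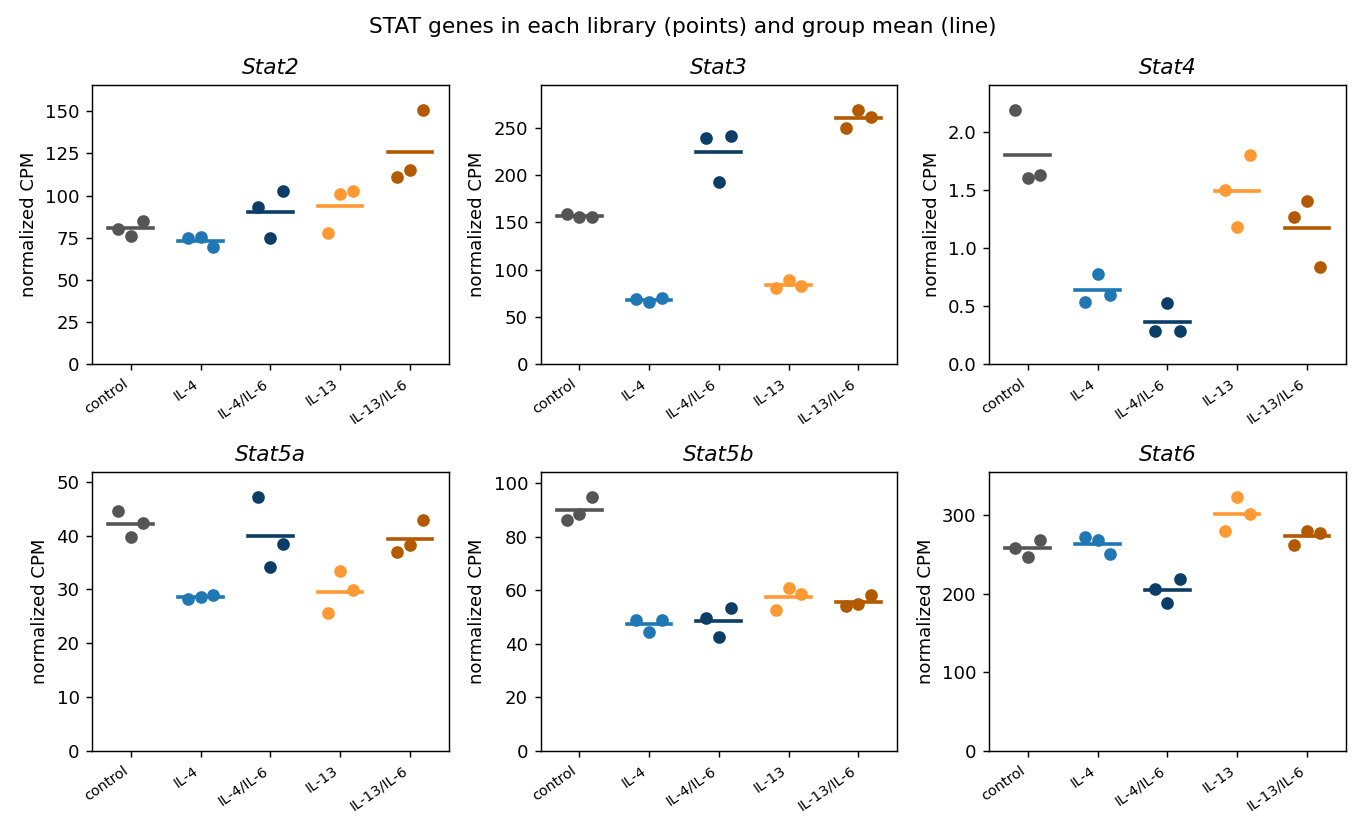
Normalized CPM (linear axes from 0, a scale of its own for each gene) of the 6 STAT genes in the 5 groups, with each library as a point and the group mean as a line. Stat3 forms 3 tiers, low with IL-4 or IL-13, intermediate in control and high where IL-6 was added, and Stat5b is highest in the 3 control libraries.

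Levels of different genes were compared per length, on the FPKM that the authors deposited (counts scaled by gene length in kilobases and by library size). Stat6 had the highest level of the 6 in all 15 libraries. In control its FPKM was 61.3 ± 3.11 (SD, n = 3), followed by Stat3 at 17.2 ± 0.288 and Stat5b at 17.0 ± 0.884, which did not differ beyond their spread. Stat2 followed at 14.2 ± 0.884, Stat5a at 6.18 ± 0.398 and Stat4 at 0.488 ± 0.0918. With IL-4 the order was Stat6 (60.7 ± 2.99), Stat2 (12.5 ± 0.606), Stat5b (8.67 ± 0.426), Stat3 (7.24 ± 0.221), Stat5a (4.06 ± 0.0489) and Stat4 (0.166 ± 0.033), with no overlap between neighbors in that order. With IL-13 it was Stat6 (70.2 ± 5.84), Stat2 (16.3 ± 2.55), Stat5b (10.6 ± 0.93), Stat3 (9.05 ± 0.562), Stat5a (4.26 ± 0.609) and Stat4 (0.396 ± 0.0823), in which the ranges of Stat5b and Stat3 overlapped. Where IL-6 was present Stat3 stood in the second place: 22.3 ± 3.63 with IL-4/IL-6, against 44.0 ± 5.22 for Stat6 and 14.5 ± 2.84 for Stat2, and 26.6 ± 1.2 with IL-13/IL-6, against 60.6 ± 2.43 and 20.7 ± 3.5. In these groups Stat3 and Stat2 did not overlap. Stat5b followed at 8.3 ± 1.31 and 9.84 ± 0.367, Stat5a at 5.31 ± 1.02 and 5.4 ± 0.41, and Stat4 at 0.0886 ± 0.0297 and 0.296 ± 0.0777.

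The shares of these 6 genes in their summed FPKM differed between the groups, mostly for Stat6 and Stat3. A share also moves when other genes of the sum change: the FPKM of Stat6 itself was 61.3 in control and 60.7 with IL-4. Stat6 made up 52.7% ± 0.392 (SD, n = 3) of the summed FPKM of the 6 genes in control, 65.0% ± 0.964 with IL-4, 63.4% ± 1.02 with IL-13, 46.7% ± 1.59 with IL-4/IL-6 and 49.1% ± 1.42 with IL-13/IL-6. The share of Stat3 was 14.8% ± 0.556, 7.77% ± 0.441, 8.18% ± 0.331, 23.6% ± 0.682 and 21.6% ± 0.783 in the same order. The ratio of Stat3 to Stat6 in FPKM was 0.281 ± 0.0124 in control, 0.12 ± 0.00861 with IL-4, 0.129 ± 0.0033 with IL-13, 0.506 ± 0.0313 with IL-4/IL-6 and 0.439 ± 0.00372 with IL-13/IL-6. The ranges of this ratio overlapped only between IL-4 and IL-13. The ratio of Stat5a to Stat5b, which was 0.365 ± 0.031 in control, was 0.469 ± 0.0267 with IL-4, 0.399 ± 0.0238 with IL-13, 0.642 ± 0.0909 with IL-4/IL-6 and 0.548 ± 0.021 with IL-13/IL-6. These shares are descriptions with no test. They depend on the length used: the deposited FPKM divide by all annotated exons, which for Stat3 come to 9527 bases against 4516 in its longest principal transcript. With the lengths of such transcripts, chosen after the data were seen, Stat3 made up 23.1% in control, 12.8% with IL-4, 13.4% with IL-13, 34.4% with IL-4/IL-6 and 32.0% with IL-13/IL-6. On that scale Stat3 ranked above Stat5b without overlap in control (35.7 to 36.9 against 17.4 to 19.1), with IL-4 (14.7 to 15.6 against 8.69 to 9.51) and with IL-13 (17.99 to 20.3 against 10.2 to 12.1), unlike the orders given above. Also, Stat6 and Stat3 overlapped in IL-4/IL-6, at 44.8 to 56.8 and 38.3 to 52.3, although Stat6 kept the higher share in each library (36.3% to 39.3% against 33.7% to 35.2%).

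**Figure D2:**
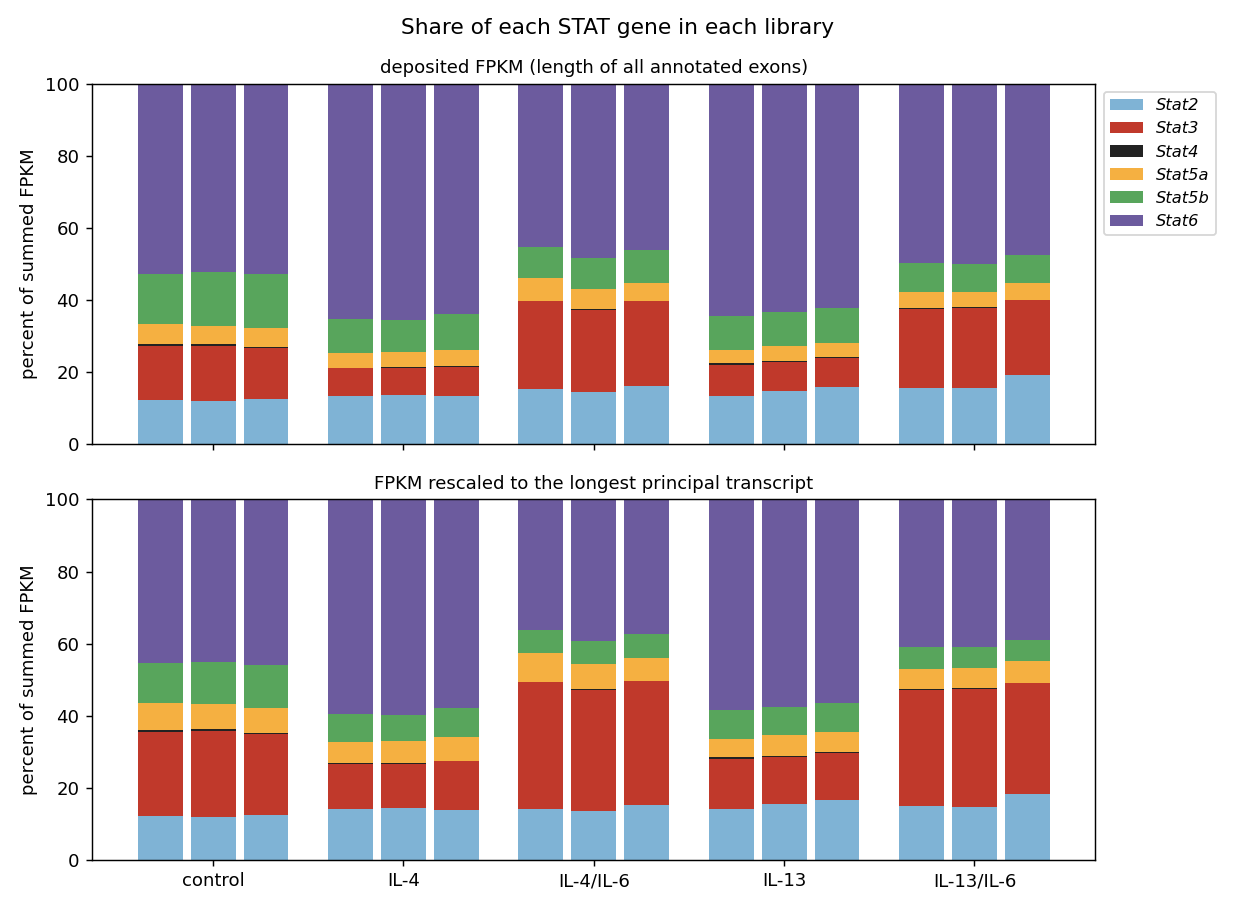
Percent of the summed FPKM taken by each STAT gene in each of the 15 libraries (3 bars per group, replicates 1 to 3 from left), with the deposited FPKM above and with FPKM rescaled to the longest principal transcript below. Stat6 (purple) takes the largest part of every bar in the upper panel, and Stat3 (red) is narrowest with IL-4 and IL-13 and widest where IL-6 was added.

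Counts were compared by the quasi-likelihood test of edgeR, with p-values adjusted by the Benjamini-Hochberg method over the 13938 genes, and a gene with an adjusted p under 0.05 is called changed. With IL-4 over control 4 of the 6 STAT genes changed, all lower, where 68% of all tested genes were called. With IL-13 over control 4 changed, 3 lower and 1 higher, beside 60.1% of all genes. With IL-4/IL-6 over control 4 changed, 1 higher and 3 lower, beside 72.9%, and with IL-13/IL-6 over control 3 changed, 2 higher and 1 lower, beside 64%. These 4 comparisons share the control libraries. Adding IL-6 to IL-4 changed 3, 2 higher and 1 lower, where 39.4% of all genes were called. Adding IL-6 to IL-13 changed 3, all higher, where 25.6% were. With IL-13 over IL-4 3 changed, all higher, beside 12.8%, and with IL-13/IL-6 over IL-4/IL-6 4 changed, all higher, beside 31.3%. The 3 calls with IL-13 over IL-4 were lost without IL-4 replicate 1 or 3, and 2 of the 4 with IL-13/IL-6 over IL-4/IL-6 (Stat2 and Stat3) without IL-13/IL-6 replicate 3. In these 2 comparisons, leaving out other libraries gave 3 further calls, and calls that Stat2 gained in other comparisons are given below. Stat2 was at 0.36 with IL-13 over IL-4 (adjusted p = 0.0753), and at 0.47 without IL-13 replicate 1 (adjusted p = 0.0157). Stat6 was at 0.19 there (adjusted p = 0.0847), and at 0.24 without that library (adjusted p = 0.0354). Stat5b was at 0.20 with IL-13/IL-6 over IL-4/IL-6 (adjusted p = 0.085), and at 0.29 without IL-4/IL-6 replicate 3 (adjusted p = 0.0169). The difference between the IL-6 effects with IL-13 and with IL-4 was called for none of the 6, beside 7.64% of all genes. Of these 6 tests 1 (Stat6) had an unadjusted p under 0.05, and none was called by DESeq2 or limma either. The shares of STAT genes called in the comparisons with control were near those of all genes.

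**Figure D3:**
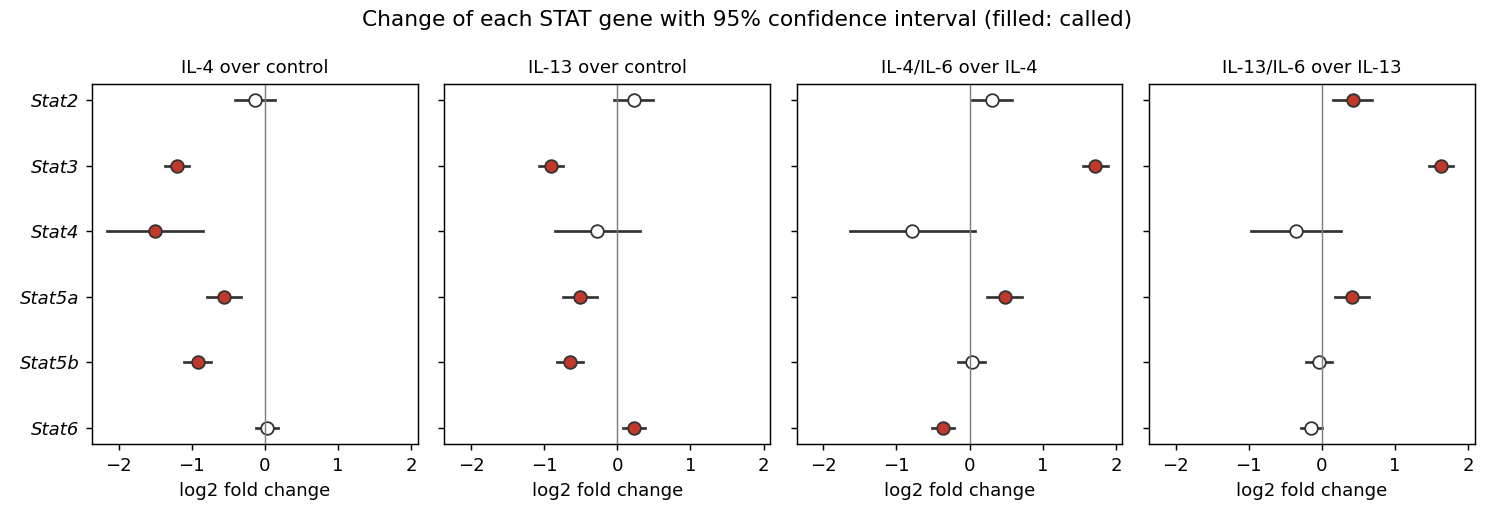
Log2 fold change of each STAT gene in 4 comparisons (n = 3 per group), with the 95% confidence interval as a line, filled circles for called changes and open circles for the rest. Stat3 lies at -1.20 and -0.90 over control and at 1.72 and 1.63 where IL-6 was added.

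Stat3, the transducer of IL-6, changed in all 8 comparisons of groups. Its level was 159, 156 and 156 CPM in the control libraries, 69.1, 65.5 and 70.0 with IL-4, and 80.3, 89.0 and 83.0 with IL-13. Adding IL-6 brought it to 239, 193 and 241 with IL-4/IL-6 and to 249.5, 268 and 262 with IL-13/IL-6. The control libraries therefore lay above all libraries with IL-4 or IL-13 alone and below all with IL-6, with no overlap. IL-4 lowered Stat3 by 2.3-fold (log2 fold change -1.20, SE 0.0785, adjusted p = 5.83e-10) and IL-13 lowered it 1.87-fold (-0.90, SE 0.0778, adjusted p = 2.99e-08). With IL-6 it rose 3.29-fold over IL-4 (1.72, SE 0.0792, adjusted p = 1.51e-11) and 3.09-fold over IL-13 (1.63, SE 0.0785, adjusted p = 5.6e-11). Both changes lay high among all tested genes, at percentiles 97.74 and 98.22. The IL-6 effects differed by -0.09 (95% interval -0.32 to 0.14, adjusted p = 0.764), and the comparisons behind them share no library. Over control Stat3 was 1.43-fold higher with IL-4/IL-6 and 1.66-fold higher with IL-13/IL-6 (adjusted p = 1.13e-05 and 2.71e-07). These 6 changes were called under every alternative run, including each fit without 1 library. The small differences between IL-13 and IL-4 (0.30, adjusted p = 0.0162) and between IL-13/IL-6 and IL-4/IL-6 (0.21, adjusted p = 0.0429) were lost without 1 of several libraries, with adjusted p up to 0.0991 and 0.177.

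The 250 bases before the RefSeq start of Stat3 are shown because it changed most with IL-6, and its window is printed on the strand of the gene (GRCm38.p6, minus strand, chr11:100939541-100939790).
Stat3: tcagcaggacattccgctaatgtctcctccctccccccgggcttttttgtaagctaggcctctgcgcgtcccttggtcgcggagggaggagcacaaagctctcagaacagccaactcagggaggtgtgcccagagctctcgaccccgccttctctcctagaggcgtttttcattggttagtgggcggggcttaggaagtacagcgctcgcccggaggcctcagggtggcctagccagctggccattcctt
This window held neither TTCNNNGAA, the core to which most STAT pairs bind, nor TTC and GAA with 4 bases between them, the spacing that STAT6 favors, nor GAAANNGAA, the core of the interferon element bound by STAT2 with IRF9, each searched on both strands. Among 32851 promoter windows of the same length, 7.02% held the first, 5.85% the second and 7.13% the last. The absence says only that these letters are not in these 250 bases. The RefSeq table gave 9 windows for the 6 genes, of which 2 held any match, and none held TTCNNNGAA.

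Stat6, the transducer of IL-4 and IL-13, changed little with either of these cytokines alone and was lowest with IL-4/IL-6. It stood at 259, 247 and 269 CPM in control, at 273, 269 and 250.4 with IL-4, and at 279.5, 323 and 302 with IL-13. With IL-4/IL-6 it was 206, 188 and 219, below every other library, and with IL-13/IL-6 it was 263, 279.7 and 277. IL-4 did not change it detectably (log2 fold change 0.03, 95% interval -0.12 to 0.18, adjusted p = 0.698). The change with IL-13 was small (0.22, SE 0.0703, adjusted p = 0.0113), and it was not called by limma on log2 FPKM (0.19, adjusted p = 0.0564). Adding IL-6 to IL-4 lowered Stat6 by 1.29-fold (-0.37, SE 0.0706, adjusted p = 0.000421). With IL-13 the value was -0.14 (95% interval -0.29 to 0.01, adjusted p = 0.161), and the IL-6 effects differed by 0.23 (SE 0.0995, unadjusted p = 0.0368, adjusted p = 0.231). Between IL-13 and IL-4 without IL-6 it differed by 0.19 (adjusted p = 0.0847), and it was higher with IL-13/IL-6 than with IL-4/IL-6 (0.42, SE 0.0706, adjusted p = 0.000217), a call kept under every alternative. It was lower with IL-4/IL-6 than in control (-0.34, adjusted p = 0.000405) and near control with IL-13/IL-6 (0.08, adjusted p = 0.322). The log2 fold changes of Nab2, which overlaps the end of Stat6, were -1.12 with IL-6 on IL-4 and -0.47 with IL-6 on IL-13 (adjusted p = 6.95e-08 and 0.00136), and the part of overlapping reads was not tested. Over control, Nab2 rose by 0.88 with IL-4 and 0.54 with IL-13 (adjusted p = 5.11e-07 and 0.000164).

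Stat5b and Stat5a, close paralogs that transduce GM-CSF and IL-3, fell together with IL-4 and with IL-13 and parted when IL-6 was added. Stat5b was 86.2, 88.7 and 94.9 CPM in control. It was 49.0, 44.6 and 48.9 with IL-4, 52.5, 61.0 and 58.7 with IL-13, 49.6, 42.4 and 53.5 with IL-4/IL-6 and 54.2, 54.9 and 58.3 with IL-13/IL-6. All 12 treated libraries lay below all 3 control libraries. The sums of granulocyte and megakaryocyte markers did so too, and the part of such cells was not tested. IL-4 lowered Stat5b 1.89-fold (log2 fold change -0.92, SE 0.0851, adjusted p = 5.19e-08) and IL-13 lowered it 1.57-fold (-0.65, SE 0.0843, adjusted p = 4.36e-06). No change with added IL-6 was detected, with log2 differences of 0.03 on IL-4 (95% interval -0.15 to 0.21, adjusted p = 0.819) and -0.04 on IL-13 (-0.22 to 0.14, adjusted p = 0.786). The difference of 0.27 between IL-13 and IL-4 (adjusted p = 0.0445) was lost under 10 of 16 alternatives.

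Stat5a was 44.6, 39.8 and 42.4 CPM in control, 28.3, 28.7 and 29.0 with IL-4, and 25.5, 33.4 and 29.9 with IL-13. With IL-4/IL-6 it was 47.2, 34.2 and 38.5, and with IL-13/IL-6 it was 37.0, 38.3 and 42.9. Both IL-6 groups overlapped control and lay above all libraries with the same cytokine alone. IL-4 lowered Stat5a 1.47-fold (-0.56, SE 0.112, adjusted p = 0.000298) and IL-13 lowered it 1.43-fold (-0.51, SE 0.111, adjusted p = 0.000779). IL-6 raised it 1.4-fold on IL-4 (0.48, SE 0.112, adjusted p = 0.00228) and 1.33-fold on IL-13 (0.41, SE 0.112, adjusted p = 0.0105), so that no difference from control was detected (-0.08 and -0.10, adjusted p = 0.532 and 0.443). The call on IL-13 was lost without IL-13 replicate 1 (0.31, adjusted p = 0.0608) and without IL-13/IL-6 replicate 3 (0.34, adjusted p = 0.0705). With the counts of both paralogs summed, an alternative chosen after the shared sequence was seen, the sum fell with IL-4 (-0.80) and IL-13 (-0.60), and its IL-6 changes of 0.22 and 0.13 were not called (adjusted p = 0.057 and 0.317). Stat3, whose end overlaps that of Stat5a, rose in the same comparisons, and the part of overlapping reads was not tested.

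Stat2, the partner of IRF9 in the interferon response, was highest with IL-13/IL-6. Its level was 80.1, 76.2 and 85.2 CPM in control, 74.7, 75.3 and 69.4 with IL-4, 93.2, 75.1 and 103 with IL-4/IL-6, 78.0, 101 and 103 with IL-13, and 111, 115 and 151 with IL-13/IL-6. The last group lay above all 12 other libraries. It was 1.56-fold above control (log2 fold change 0.64, SE 0.127, adjusted p = 0.000298), called under every alternative. Over IL-13 the rise was 1.34-fold (0.42, SE 0.127, adjusted p = 0.0203), and over IL-4/IL-6 it was 1.39-fold (0.48, SE 0.127, adjusted p = 0.00862). Both were lost without IL-13/IL-6 replicate 3, the library at 151 CPM (0.26 and 0.33, adjusted p = 0.178 and 0.0652), and the first also without IL-13 replicate 1 (0.30, adjusted p = 0.104). The IL-4 libraries lay below the control libraries, but the change was not called (-0.14, 95% interval -0.41 to 0.13, adjusted p = 0.351). The IL-13 group overlapped control (0.22, 95% interval -0.05 to 0.49, adjusted p = 0.144), and its change was called without IL-13 replicate 1 (0.37, adjusted p = 0.0197). The change with IL-6 on IL-4 was 0.31 (adjusted p = 0.0693), and it was called without IL-4/IL-6 replicate 2 (0.41, adjusted p = 0.00957). Without the filter on low counts these changes with IL-13 and with IL-6 on IL-4 were called as well (0.28 in both, adjusted p = 0.00525 and 0.0087). IL-4/IL-6 over control was at 0.17 (adjusted p = 0.249). It was called without IL-4/IL-6 replicate 2 (0.31, adjusted p = 0.0251) and without the filter (0.22, adjusted p = 0.0313). IL-13 over IL-4 was called without the filter too (0.34, adjusted p = 0.00225). Fits of only the libraries compared called IL-13 over control (0.24, adjusted p = 0.0437) and IL-13 over IL-4 (0.35, adjusted p = 0.0292).

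The library with the highest Stat2 was also the highest in genes raised by interferon. The sum of 18 genes known to be raised by the STAT2-IRF9 complex was 1165 CPM in IL-13/IL-6 replicate 3 against 781 and 719 in the other replicates of that group. It was between 768 and 838 with IL-13, between 638 and 794 with IL-4/IL-6, between 673 and 711 with IL-4 and between 395 and 416 in control. The sums follow the most abundant members: with IL-4/IL-6 over control 3 of the 18 rose, 5 fell and 10 were not called (median -0.12, beside 72.9% of all genes called), and Bst2, which rose, went from 81.1 to 349.98 CPM. That median was -0.03 without IL-4/IL-6 replicate 1, with 3 lower, and -0.41 without IL-4/IL-6 replicate 3, with 8 lower. Leaving out a control library put it between -0.21 and -0.07, with 4 lower. All 18 were tested. With IL-13 over control 13 rose and none fell (median log2 fold change 0.88, beside -0.02 over all genes tested, of which 60.1% were called). With IL-4 over control 8 rose and 2 fell (0.34, beside -0.05 and 68% called). Neither fall was called without control replicate 3 or without IL-4 replicate 3, and the median was 0.23 without control replicate 1. Isg15, a ubiquitin-like antiviral protein, rose by 1.32 with IL-4 and 1.79 with IL-13, and Usp18, which removes that protein and restrains the interferon receptor, by 2.31 and 2.14. Ifi44 rose by 1.78 and 2.58, Bst2 by 1.60 and 1.51, Oasl2 by 1.09 and 1.59 and Oas1a by 1.12 and 1.17. Irf7, the regulator that amplifies interferon output, rose by 0.78 and 1.43, while Ifit3 rose by 1.38 with IL-13 and was at -0.22, not called, with IL-4. Adding IL-6 to IL-4 lowered 7 and raised 2 (median -0.46, beside 39.4% of all genes called), among them Ifi44 (-1.87), Ifit3 (-1.32), Oasl2 (-1.21) and Mx1 (-1.06), and adding it to IL-13 changed none of the 18 (median 0.11, beside 25.6%). With IL-13/IL-6 over IL-4/IL-6, 16 were higher and 1 lower (median 1.37, beside 31.3%). Without IL-13/IL-6 replicate 3, a fit added after that library was seen, 14 were higher and 2 lower in that comparison (median 0.88), and adding IL-6 to IL-13 lowered 4 and raised none (median -0.28). Adding IL-6 to IL-4 raised 2 and lowered 3 without IL-4/IL-6 replicate 1 (median -0.34), and it raised none and lowered 6 without IL-4/IL-6 replicate 2 or without IL-4 replicate 2. Irf9 itself changed little, at -0.10 with IL-4 (not called) and 0.24 with IL-13.

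The 250 bases before the RefSeq start of Stat2 are shown because they were the only upstream window of an abundant member with a match (GRCm38.p6, plus strand, chr10:128270248-128270497). Capitals mark GAAANNGAA on the minus strand, from 221 to 213 bases before the start, and TTC and GAA with 4 bases between them, from 210 to 201 bases before it.
Stat2: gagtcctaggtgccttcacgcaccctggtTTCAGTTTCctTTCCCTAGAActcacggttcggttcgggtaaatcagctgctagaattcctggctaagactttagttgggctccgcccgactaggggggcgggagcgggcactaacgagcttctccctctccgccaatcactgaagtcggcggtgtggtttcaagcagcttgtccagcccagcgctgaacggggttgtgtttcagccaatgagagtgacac
The other window with a match precedes an internal start of Stat4, with GAAANNGAA from 97 to 89 bases before that start. A match is a description of the letters, and no binding was measured.

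**Figure D4:**
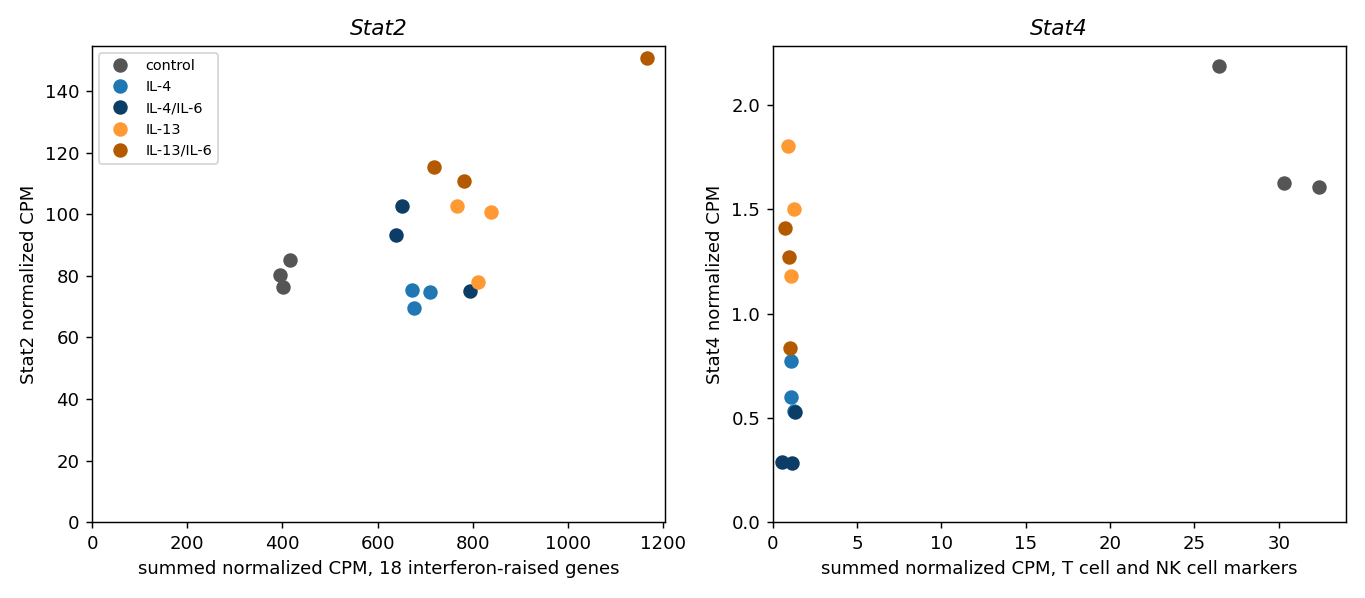
Left, normalized CPM of Stat2 in each library against the summed normalized CPM of 18 genes known to be raised by the STAT2-IRF9 complex; right, normalized CPM of Stat4 against the summed normalized CPM of T cell and NK cell markers (linear axes from 0, colors give the groups). IL-13/IL-6 replicate 3 lies alone at the top right on the left, and on the right all libraries with IL-13 have Stat4 above all libraries with IL-4. The marker sums of the treated libraries rest on few counts, and their relation to Stat4 was not tested.

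Stat4, the IL-12 transducer, was scarce: its counts were 42, 29 and 29 in control, 10, 14 and 11 with IL-4, 5, 9 and 5 with IL-4/IL-6, 28, 21 and 35 with IL-13 and 22, 26 and 15 with IL-13/IL-6. In CPM the groups ran at 1.61 to 2.19, 0.535 to 0.775, 0.284 to 0.53, 1.18 to 1.8 and 0.834 to 1.41 in the same order. All libraries with IL-13 lay above all with IL-4. IL-4 lowered Stat4 2.83-fold (log2 fold change -1.50, SE 0.312, adjusted p = 0.000409) and IL-4/IL-6 lowered it 4.88-fold (-2.29, SE 0.348, adjusted p = 1.4e-05), while no change was detected with IL-13 (-0.27, 95% interval -0.85 to 0.31, adjusted p = 0.409). With IL-13/IL-6 all libraries lay below control, and the change was not called (-0.62, 95% interval -1.23 to -0.02, adjusted p = 0.0646), although it was with upper-quartile scaling and limma (-0.67 and -0.58, adjusted p = 0.0471 and 0.0204). It was higher with IL-13 than with IL-4 (1.23, SE 0.319, adjusted p = 0.0153) and with IL-13/IL-6 than with IL-4/IL-6 (1.66, SE 0.369, adjusted p = 0.0021). The latter was called under every alternative, and the former was lost without IL-4 replicate 1, without IL-4 replicate 3 and without IL-13 replicate 3 (1.07 to 1.19, adjusted p 0.0627 to 0.0849). Changes with added IL-6 were -0.79 on IL-4 (95% interval -1.64 to 0.07, adjusted p = 0.132) and -0.35 on IL-13 (-0.97 to 0.26, adjusted p = 0.435), which these counts could not tell from no change.

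The summed markers of the lymphocytes in which Stat4 is known to act were higher in control, for T cells mostly through Cd4. The sums with IL-13 and with IL-4 overlapped. The part of such cells in the Stat4 levels was not tested. The 6 T cell markers summed to 25.2 to 30.4 CPM in control, of which up to 29.7 came from Cd4, while Cd3e had no count in any library and Cd3g at most 1. They summed to 0.546 to 0.803 with IL-4, 0.518 to 1.24 with IL-4/IL-6, 0.536 to 0.788 with IL-13 and 0.705 to 0.89 with IL-13/IL-6. The 6 NK cell markers summed to 1.25 to 1.94 in control, 0.482 to 0.546 with IL-4, 0 to 0.0589 with IL-4/IL-6, 0.103 to 0.75 with IL-13 and 0 to 0.116 with IL-13/IL-6, and Gzma and Prf1 had no count anywhere. Of 6 genes known to be raised by STAT4, 3 were tested. With IL-4 over control 1 rose and 1 fell, and with IL-13 over control 1 rose and 2 fell, beside 68% and 60.1% of all genes called. Adding IL-6 to IL-4 raised 1 and lowered 2, and adding it to IL-13 raised 1 and lowered 1, beside 39.4% and 25.6%. Among them Il12rb2, a chain of the IL-12 receptor, fell with IL-4 (-1.93) and IL-13 (-1.29) and again when IL-6 was added (-3.65 and -2.52). Il18rap, a chain of the IL-18 receptor, rose by 1.41 with IL-4 and 0.43 with IL-13 (adjusted p = 0.0424, not called when any of the 3 control libraries was left out or without IL-13 replicate 2 or 3), and fell when IL-6 was added to IL-4 (-2.84). Furin, a protease that cleaves proproteins, was at -0.19 with IL-4, not called, and fell with IL-13 (-0.42). It rose when IL-6 was added to IL-4 (0.33, not called without IL-4 replicate 3 or IL-4/IL-6 replicate 1) and to IL-13 (0.42).

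**Figure D5:**
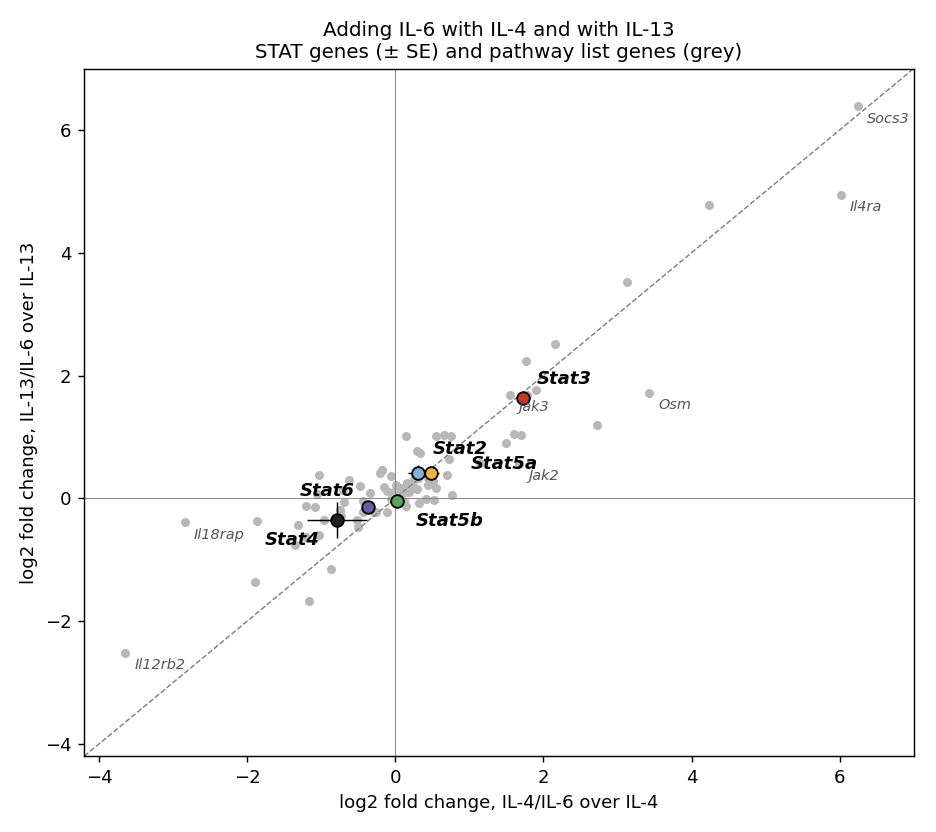
Log2 fold change when IL-6 was added to IL-4 (horizontal) and to IL-13 (vertical) for the 6 STAT genes (colored, with SE as bars) and the tested genes of the pathway lists (grey); the dashed line marks equal change. Stat3 lies near the line at 1.72 and 1.63 beside Jak3, while Jak2 and Osm lie below it.

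Receptors, kinases and inhibitors of the pathway changed as well; values in parentheses are log2 fold changes, with IL-4 given first. Of the 4 JAK kinases, 3 fell with IL-4 and 4 with IL-13 (2 without IL-13 replicate 1), where 68% and 60.1% of all genes were called, while IL-6 raised 3 on IL-4 and 2 on IL-13 (median log2 fold change 0.89 and 0.36, beside 0.04 and 0.01 over all genes, of which 39.4% and 25.6% were called). Jak2, which serves IL-6 and growth factor receptors, rose by 1.67 and 0.56 with IL-6, and Jak3, the partner of the common gamma chain, by 1.54 and 1.69. All 3 tested chains of the IL-4 and IL-13 receptors fell with either cytokine: Il4ra (-1.34 and -0.82), Il13ra1 (-3.18 and -2.79) and Il2rg, the common gamma chain (-0.51 and -0.65). With IL-6 Il4ra rose by 6.02 on IL-4 and 4.94 on IL-13. Of 4 tested IL-6 family chains, IL-4 raised 2, Il6st (0.72) and Il11ra1 (0.78), and lowered Il6ra, which binds IL-6 (-1.76), while IL-13 lowered Il6ra (-1.41) and changed no other. With IL-6 on either cytokine Il11ra1 fell (-0.50 and -0.46), and 2 rose: Il6st, the shared signaling chain gp130, by 1.14 and 0.58, and Lifr by 1.76 and 2.24.

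Of 13 tested receptor chains of other cytokines that use STATs, IL-4 raised 3 and lowered 6, and IL-13 raised 1 and lowered 6, shares near the 68% and 60.1% of all genes called. Il10ra, the IL-10 receptor chain that recruits STAT3, fell (-2.08 and -1.70), as did Csf3r, the G-CSF receptor (-2.08 and -2.64), and Il21r (-0.89 and -1.21). With IL-6, 4 rose and 5 fell on IL-4, and 4 rose (2 without IL-13/IL-6 replicate 1 or 3) and 4 fell on IL-13, beside 39.4% and 25.6% of all genes called. Il21r rose by 2.16 and 2.52 and Csf3r by 1.60 and 1.05, while Ifngr1 (-1.20 and -0.63) and Csf2ra, the GM-CSF receptor chain upstream of STAT5 (-1.03 and -0.60), fell.

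All 8 SOCS family genes, whose products block JAK and STAT signaling, were tested. IL-4 raised 4 and lowered 4, and IL-13 raised 3 and lowered 5 (3 without control replicate 1 or IL-13 replicate 1, 2 without control replicate 2), where 68% and 60.1% of all genes were called. Socs1, which restrains STAT6, rose by 5.16 and 3.33 and Cish by 3.82 and 1.76, while Socs3, the inhibitor of IL-6 signaling, fell (-2.36 and -2.77). Socs2 rose with IL-4 (1.53) and fell with IL-13 (-0.64). IL-6 raised 5 on IL-4 (3 without IL-4 replicate 3) and 3 on IL-13 and lowered none, beside 39.4% and 25.6% of all genes called in either direction. Socs3 rose by 6.25 and 6.39, and Socs2 by 0.75 and 1.01. Of 8 PIAS inhibitors and STAT phosphatases, 1 rose and 4 fell with IL-4, and 1 rose and 3 fell with IL-13, no more than the share of all genes. With IL-6, 2 rose and 2 fell on either cytokine, beside 39.4% and 25.6% of all genes called. None changed by more than 1 on the log2 scale in these 4 comparisons. Of 10 partners and coactivators, 3 rose and 4 fell with IL-4 and 4 rose and 4 fell with IL-13, among them the acetyltransferase Ep300 (-1.20 and -0.75), again beside 68% and 60.1% of all genes called. IL-6 raised 2 and lowered 1 on IL-4, and it lowered 1 on IL-13, beside 39.4% and 25.6% of all genes called.

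Genes known to be raised by each STAT were described as lists, with no test of the list. Of 16 genes known to be raised by STAT6, 13 had enough counts to be tested. Of these, 11 rose with IL-4 and 10 with IL-13, while 2 fell in each case (median 2.76 and 1.60, beside -0.05 and -0.02 over all genes, of which 68% and 60.1% were called). Retnla, Ccl24 and Cish had at most 0, 6 and 9 counts in a control library. They passed the filter only through treated groups, so these counts and medians are partly set by it. The same holds for Cish on the SOCS and STAT5 lists. Retnla, with no count in the control libraries, was at 729 ± 52.7 CPM (SD, n = 3) with IL-4 and 51.2 ± 4.55 with IL-13. It has no fold here, and only its place above the median enters that value. Mgl2 rose by 7.87 and 6.17, Ccl24 by 6.05 and 2.63, Klf4 by 3.21 and 2.25, Clec10a by 2.76 and 1.18, Egr2 by 2.66 and 1.60 and Mrc1 by 2.34 and 1.34, and Chil3 rose by 1.63 with IL-4. The 2 that fell were Ccl22 (-1.93 and -1.77) and Tgm2 (-1.70 and -1.65). Stat6 itself was at 0.03 and 0.22 in these comparisons. With IL-6, 8 rose and 5 fell on IL-4 (4 and 4 without IL-4 replicate 3) and 6 rose and 4 fell on IL-13, beside 39.4% and 25.6% of all genes called. Ccl24 rose by 4.24 and 4.77, Mrc1 by 3.13 and 3.53 and Chil3 by 1.49 and 0.90, while Egr2 (-1.90 and -1.36), Pparg (-1.35 and -0.75), Ccl22 (-1.16 and -1.67) and Retnla (-0.87 and -1.14) fell. Mgl2 fell on IL-4 (-1.08). Stat6 was lower on IL-4 as well (-0.37), and the relation of these changes was not tested.

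Of 14 tested STAT3 genes, IL-6 raised 9 and lowered 3 on IL-4 and raised 11 and lowered 1 on IL-13 (median 0.55 and 1.02, beside 0.04 and 0.01 over all genes, of which 39.4% and 25.6% were called). Besides Socs3 and Il4ra, the largest rises on IL-4, given with those on IL-13, were those of Cebpd, a transcription factor of the acute-phase response, by 2.73 and 1.20, Bcl3 by 1.90 and 1.77, Sbno2 by 1.78 and 1.69 and the kinase Pim1 by 1.69 and 1.02. Etv3 rose by 0.66 and 1.03 and Nfil3 by 1.01 on IL-13. With IL-4 alone 6 rose and 8 fell, and with IL-13 alone 6 rose and 6 fell, beside 68% and 60.1%. Bcl3 (-1.99 and -1.60) and Pim1 (-0.76 and -1.07) fell, whereas Myc rose by 3.38 and 2.93, Nfil3 by 2.34 and 1.11 and Etv3 by 1.05 and 0.66. Of 7 tested STAT5 genes, 4 rose with IL-4 and 4 with IL-13, and 2 and 3 fell, in comparisons in which Stat5a and Stat5b were both lower and 68% and 60.1% of all genes were called. Id1 rose by 4.03 and 4.33 and the survival gene Bcl2l1 by 1.5 and 1.79, and Ccnd2 rose by 1.07 with IL-13. IL-6 raised 5 on IL-4 and 4 on IL-13 and lowered none, beside 39.4% and 25.6% of all genes called, with Osm, a cytokine of the IL-6 family, rising by 3.43 and 1.72. Several genes stand on more than a single list, among them Cish, Socs1, Socs2, Socs3, Pim1 and Il4ra.

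The genes whose pattern over the 15 libraries was most like each member were listed by the correlation of log2 CPM, as a description. For Stat3 they were Tle3 (Pearson r = 0.986), Kif3a (0.985) and Nacc2 (0.985), and for Stat5b Notch2 (0.987), Clcn7 (0.984) and Rapgef6 (0.982). For Stat6 they were Inppl1 (0.967), Bicd2 (0.963) and Smc5 (0.959), and for Stat5a Arnt (0.946), Lpp (0.939) and Kremen1 (0.937). For Stat4 they were Maged1 (0.954), Cd14 (0.944) and Lpar6 (0.941), and for Stat2 Ankrd50 (0.941), Sipa1l2 (0.937) and Ddx60 (0.929). The number of genes with r over 0.9 was 859 for Stat5b, 110 for Stat3, 80 for Stat6, 44 for Stat4, 22 for Stat5a and 7 for Stat2. Within the family the highest correlation was that of Stat3 with Stat5a (0.82), followed by Stat4 with Stat5b (0.656) and Stat4 with Stat6 (0.639), and the lowest was that of Stat3 with Stat6 (-0.44). The libraries fall into 5 groups of replicates, so these values mostly follow the group means. Tested neighbors on the chromosome differed in whether they moved with a member. Ghdc, beside Stat5b, rose by 0.53 and 0.42 with IL-6 on IL-4 and on IL-13 (adjusted p = 8.5e-05 and 0.00115), where Stat5b was at 0.03 and -0.04, not called. Lrp1 and Nemp1, beside Stat6, fell with IL-6 on IL-4 (-0.93 and -0.57, adjusted p = 0.000213 and 0.00502), as Stat6 did, and on IL-13 they were at -0.31 and -0.45 (adjusted p = 0.195 and 0.0282). Cavin1, beside Stat3, rose by 2.60 with IL-4 and by 1.30 with IL-13, where Stat3 fell, and no change with IL-6 was detected (-0.08 on IL-4, adjusted p = 0.646). Kcnh4 did not pass the test in these comparisons (adjusted p = 0.218 to 0.541). Timeless, near Stat2, fell with IL-6 (-0.76 on IL-4 and -0.36 on IL-13), while Pan2 and Cnpy2 did not pass the test there. Over control, Timeless rose by 2.055 with IL-4 and 2.225 with IL-13 (adjusted p = 1.9e-11 and 1.1e-11). Pan2 fell (-0.853 and -0.778, adjusted p = 4.34e-05 and 0.000129), and Cnpy2 was not called (adjusted p = 0.149 and 0.604).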

How the data were processed

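RNA of 15 BMDM libraries was sequenced. The authors deposited counts per gene, whole numbers without normalization, and FPKM values, which equal the count divided by the summed count of the library and by the length of all annotated exons (checked on 12938 genes, relative difference at most 2.65e-08). The submitters' processing notes name HISAT2 2.1.0, Bowtie2 2.2.3, TopHat2, CASAVA, DESeq2 and GRCm38, with no role given. Counting strand is not given in the sources used here.

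Groups came from the labels. Genes were filtered with filterByExpr (minimum count 10) and tested with edgeR 4.0.16 in R 4.3.3: TMM scaling, a single quasi-likelihood fit of all 15 libraries without covariates, Benjamini-Hochberg adjustment over 13938 genes, calls at an adjusted p under 0.05. The code was tested on simulated data. The p-values set each difference against the spread between replicates. That spread was fitted over all 15 libraries, although it differed between the groups. Alternatives used DESeq2 1.42.0, limma 3.58.1 on log2(FPKM + 0.1), other scalings, filters and library sets. Replicate numbers did not pair the libraries. Positions and lengths came from GENCODE M21 (GRCm38), promoters from RefSeq (GRCm38.p6), matched by symbol for all 6 genes; protein sequences were not used here.

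The members and lists were chosen with earlier results of these data known. All members were named; list genes were named where called with a log2 change above 1 in IL-4 or IL-13 over control or IL-6 on IL-4 or IL-13, or where a sentence on a member turned on them; also the 3 genes most like each member and genes overlapping or beside a member. Some items are left out of the lists and are not reported here.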

Additional observations from a re-analysis of the deposited data

Results flagged for a closer look

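None of the 6 STAT genes was called in the test of whether the IL-6 effect differed between IL-13 and IL-4. Of 51 other genes named by the rule, 17 were called in that test (edgeR quasi-likelihood test, adjusted p under 0.05), and the values that follow are the IL-6 effect with IL-13 minus that with IL-4 on the log2 scale, with n = 3 libraries per group. Over all tested genes 7.64% were called, and most of the 51 were named for a large change in comparisons that include the IL-6 effects, so the counts cannot be set against each other. IL-6 raised these genes less with IL-13 than with IL-4: Osm (-1.70, 3.43 with IL-4 and 1.72 with IL-13), Cebpd (-1.53, 2.73 and 1.20), Jak2 (-1.11, 1.67 and 0.56), Il4ra (-1.08, 6.02 and 4.94), Pim1 (-0.67, 1.69 and 1.02), Chil3 (-0.59, 1.49 and 0.90) and Csf3r (-0.55, 1.60 and 1.05). The value for Nfil3 was higher with IL-13 (0.87, 0.15 and 1.01). The values in the direction of a fall were smaller with IL-13 for Il18rap (2.45, -2.84 and -0.39), Oasl2 (1.09, -1.21 and -0.12), Mgl2 (0.94, -1.08 and -0.14), Nab2 (0.64, -1.12 and -0.47), Il10ra (0.61, -0.96 and -0.35), Pparg (0.59, -1.35 and -0.75), Ifngr1 (0.57, -1.20 and -0.63), Egr2 (0.54, -1.90 and -1.36) and Csf2ra (0.44, -1.03 and -0.60). All 17 were called with any 1 of the 12 treated libraries left out, fits added after the data were seen. For Oasl2 the difference was then between 0.73 and 1.27, and the lowest, without IL-13/IL-6 replicate 3, had an IL-6 effect of -0.49 with IL-13. The doses of IL-4 and IL-13 differed, at 10 and 40 ng/ml, so dose and cytokine cannot be told apart.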

How the results depend on the processing

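Of 414 alternative values of the 28 called changes of STAT genes, 380 kept the direction and the call, 34 lost the call and none changed direction. Of 425 for the 26 uncalled results, 388 stayed uncalled in the same direction, 16 were called and 21 changed direction. Limma on log2 FPKM left 1 STAT gene called for IL-6 on IL-13 (3 by edgeR). Leaving out 1 library in turn gave 1 to 3 there (1 without IL-13 replicate 1 or IL-13/IL-6 replicate 3), 0 to 5 for IL-13 over IL-4 (0 without IL-4 replicate 1 or 3, 5 without IL-13 replicate 1), and 2 to 5 for IL-13/IL-6 over IL-4/IL-6 (2 without IL-13/IL-6 replicate 3). Over all genes, IL-13 over IL-4 gave 1088 calls (without IL-13 replicate 3) to 2915 (without IL-13 replicate 1), against 1779 with all libraries. A fit of the 6 libraries compared alone gave 2900 for IL-13/IL-6 over IL-4/IL-6, against 4368. The cause was not tested.

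Changes of direction concerned small values. Stat5b with IL-6 on IL-4 was at -0.057 with upper-quartile scaling, -0.074 with limma, -0.0095 in a fit of the libraries compared, and between -0.064 and 0.103 with 1 library left out. Stat5a in IL-13/IL-6 over IL-4/IL-6 was at 0.0027 without a filter, 0.038 with limma, 0.106 with the paralogs summed, and between -0.122 and 0.125 with 1 library left out. With limma, Stat6 was at -0.014 with IL-4 and -0.015 with IL-13/IL-6, both over control. With 1 library left out, Stat5a ranged from -0.198 to 0.049 in IL-4/IL-6 over control and from -0.043 to 0.136 in IL-13 over IL-4. The difference of the IL-6 effects ranged from -0.165 to 0.081 for Stat5a, from -0.156 to 0.017 for Stat5b and from -0.026 to 0.23 for Stat2. Summing the paralogs put the Stat5b value for IL-6 on IL-13 at 0.129.

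The replicate block took 1 call, Stat3 in IL-13/IL-6 over IL-4/IL-6 (0.21, adjusted p = 0.0595), and changed no other call of a STAT gene. The numbers did not pair the libraries: 3 of 30 same-numbered pairs correlated above 0.1, and 3 of 15 libraries correlated best with their own number. Limma on log2 FPKM, which has no TMM scaling, moved the median of all genes by -0.15 for IL-4/IL-6 against control and by -0.10 for IL-6 on IL-4. For the latter it called 1954 genes higher and 3283 lower, against 2885 and 2603 by edgeR and 2073 and 3245 with upper-quartile scaling. For IL-6 on IL-13 it called 1276 higher and 2262 lower, against 1684 and 1879. Stat4 had 42 counts or fewer per library, and its fold changes have the widest intervals of the 6.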
